A study of Mus musculus with 6 samples.

Results

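Genes of the circuit that runs stem cell programmes in blood and in myeloid leukemia were followed: Meis1, Pbx2, Pbx3, Hoxa7, Hoxa9, Hoxa10, Hlf, Myb and Erg. They were chosen by name, as the rows of the count table whose Entrez gene ID belongs to these symbols, and all 9 were found among 27179 genes. The cells came from a mouse acute myeloid leukemia of the C57BL/6 strain that carries the label A/E9a;NRASG12D: the RUNX1-RUNX1T1 fusion, as its shorter splice variant, together with activated NRAS. Mice were given panobinostat, a histone deacetylase inhibitor, or vehicle for 3 days, and GFP-positive leukemia cells that excluded propidium iodide were then sorted from the spleen. Both groups carry both oncogenes, so no normal blood cell and no leukemia without the fusion is part of the comparison. There were 3 libraries from panobinostat and 3 from vehicle. The name of the deposited counts also calls the cells of all libraries WT tumor cells, without saying what WT refers to. The labels list the leukemia as a cell line; the promoter that drives the oncogenes, the number of clones, the age of the mice and whether each library is a separate mouse are not stated in those labels. If the libraries of a group share an animal, the p-values below measure a spread that may be technical.

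MEIS and PBX proteins belong to the TALE class of homeodomain factors, and they bind DNA together with HOX proteins. In mouse bone marrow, Hoxa7, Hoxa9, Hoxa10 and Meis1 are high in stem and early progenitor cells and are shut down as cells mature. Leukemias with rearranged MLL (Kmt2a) keep them on through menin and DOT1L, whereas leukemias with RUNX1-RUNX1T1 are known for low HOXA expression. HLF, of the PAR bZIP family, MYB and the ETS factor ERG are further transcription factors on which blood stem cells depend.

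Panobinostat libraries 1, 5 and 6 held 32571961, 25794869 and 32111154 counts, and vehicle libraries 2, 3 and 4 held 29548544, 27259492 and 28338952. One count was worth between 0.0307 and 0.0388 CPM, the count relative to library size, before scaling. Levels below are CPM after TMM scaling, a correction for library composition, and differences are log2 fold changes of panobinostat over vehicle from edgeR's quasi-likelihood test. Its p-values were adjusted by Benjamini-Hochberg over all 12916 genes with enough counts, and calls were made below 0.05. Panobinostat library 1 stood apart from the other panobinostat libraries, at 46.95 on the second principal component against -35.6 and -12.9, and it is also the one library whose column name ends its run of numbers differently, in a number the sources do not explain. Folds of named genes that moved by over 1.5 times without it are given without it too. Of the genes that mark the leukemia, Kit and Gata2 were abundant in every library, at 163 to 321 and 609 to 751 CPM with panobinostat against 210 to 221 and 345 to 436 CPM with vehicle. Reads on Runx1t1, the fusion partner, gave 367, 858 and 619 CPM with panobinostat and 416, 382 and 277 CPM with vehicle, a log2 fold change of 0.78 ± 0.30 (edgeR adjusted p = 0.105). DESeq2 (adjusted p = 0.0293), limma-voom with sample quality weights (0.00795) and edgeR without panobinostat library 1 (log2 fold change 1.04, adjusted p = 0.0109) did call Runx1t1 higher. Whether these reads come from the fusion or from the mouse gene was not tested.

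The sequences just upstream of an annotated start of 5 of the genes are given first. The Meis1 window lies inside the span given below for that gene, not upstream of it. Which start the reads came from was not tested. RefSeq promoters (GRCm38.p6) were found for 8 of the 9 genes, Pbx3 being the other. Printed here are the 250 bases before the RefSeq promoter start of the 4 genes that changed. Beside them is the window of Hoxa9, which was close to silent. Capitals mark matches, on either strand, to the letters of the PBX-HOX motif TGATNNAT, the MEIS motif TGACAG, the MYB motif TAACNG, the PAR bZIP motif TTANGTAA, the ETS motif CCGGAA or the GATA motif AGATAA.
Meis1, chr11:19018970-19019219, minus strand: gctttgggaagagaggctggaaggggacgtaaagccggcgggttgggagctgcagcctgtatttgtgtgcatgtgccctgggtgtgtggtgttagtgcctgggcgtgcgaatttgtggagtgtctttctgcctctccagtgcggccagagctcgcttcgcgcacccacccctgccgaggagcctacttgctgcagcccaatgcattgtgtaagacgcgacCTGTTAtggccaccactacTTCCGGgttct
Pbx2, chr17:34592009-34592258, plus strand: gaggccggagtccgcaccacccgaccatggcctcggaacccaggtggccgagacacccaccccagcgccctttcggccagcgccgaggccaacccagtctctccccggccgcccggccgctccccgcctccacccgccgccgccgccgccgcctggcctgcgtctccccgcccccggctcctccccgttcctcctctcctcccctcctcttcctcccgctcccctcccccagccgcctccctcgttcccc
Myb, chr10:21160985-21161234, minus strand: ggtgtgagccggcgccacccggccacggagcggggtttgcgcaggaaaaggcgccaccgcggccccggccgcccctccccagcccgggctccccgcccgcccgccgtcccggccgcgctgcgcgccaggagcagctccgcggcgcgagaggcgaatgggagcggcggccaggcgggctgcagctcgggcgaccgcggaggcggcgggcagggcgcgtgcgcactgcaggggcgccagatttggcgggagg
Hlf, chr11:90390918-90391167, minus strand: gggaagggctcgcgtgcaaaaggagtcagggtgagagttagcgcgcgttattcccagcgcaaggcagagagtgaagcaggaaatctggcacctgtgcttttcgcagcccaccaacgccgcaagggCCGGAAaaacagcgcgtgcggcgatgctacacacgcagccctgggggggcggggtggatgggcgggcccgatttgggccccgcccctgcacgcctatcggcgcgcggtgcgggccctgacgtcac
Hoxa9, chr6:52227371-52227620, minus strand: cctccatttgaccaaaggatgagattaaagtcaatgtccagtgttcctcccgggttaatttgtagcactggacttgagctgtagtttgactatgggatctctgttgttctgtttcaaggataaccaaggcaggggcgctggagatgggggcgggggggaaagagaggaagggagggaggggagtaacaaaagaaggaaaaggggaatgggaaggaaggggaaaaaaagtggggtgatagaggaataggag

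The Meis1 sequence holds the MYB letters at positions -30 to -25 and the ETS letters at -11 to -6. Positions are counted back from the annotated start that each window precedes. The Hlf sequence holds the ETS letters at -125 to -120. None of these matches overlap each other, and the Pbx2, Myb and Hoxa9 windows hold none of the 6 motifs. Over all 32851 promoter windows of this length, 19.8% hold the MYB letters, 12.0% the ETS letters, 15.9% the MEIS letters, 9.99% the GATA letters, 7.68% the PBX-HOX letters and 2.06% the PAR bZIP letters. A match is only a match of letters. The windows differ in their content of CG dinucleotides, the sites of DNA methylation: Myb has 40, Pbx2 27, Hlf 26, Meis1 13 and Hoxa9 3. Fewer CG dinucleotides were found in 98.7% of all windows for Myb, and in 29.0% for Hoxa9.

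Among the 9 genes, Meis1, Pbx2 and Myb were higher after panobinostat, Hlf was lower, Pbx3 and Erg were not called, and the 3 Hoxa genes had too few counts to test. The 6 tested genes were therefore called in 4 cases, while 21.0% of all tested genes were called, 11.3% higher and 9.72% lower. The median log2 fold change of the 6 was 0.51, against 0.01 over all tested genes. The 3 libraries of one group lay wholly on one side of the other group for the 4 called genes, and did so for 44.6% of all tested genes, 21.9% with panobinostat above and 22.7% with it below. A 2-sided exact permutation test of 3 libraries against 3 has 0.1 as its smallest p; it gave 0.1 for Meis1, Pbx2, Hlf and Myb, 0.2 for Pbx3 and 0.9 for Erg.

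**Figure D1:**
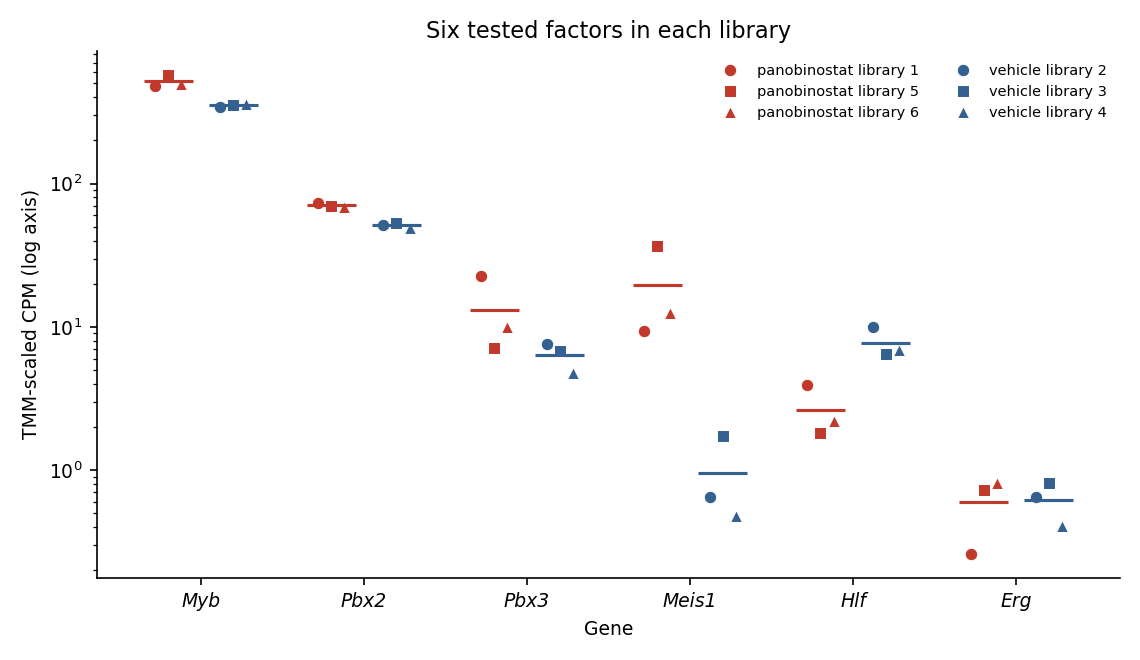
TMM-scaled CPM (log axis) of the 6 tested genes in each library, with panobinostat in red on the left and vehicle in blue on the right of each gene; lines are group means, and levels are not divided by gene length. Meis1 sits between 9.42 and 36.9 CPM with panobinostat and between 0.480 and 1.74 CPM with vehicle, while the groups overlap for Pbx3 and Erg.

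Meis1, the TALE cofactor that sustains stem cells and speeds up HOXA-driven leukemia in mice, showed by far the widest change of the 9. It had 289, 916 and 397 counts in panobinostat libraries 1, 5 and 6, against 20, 49 and 14 counts in vehicle libraries 2, 3 and 4. On the scaled level this was 9.42, 36.9 and 12.5 CPM with panobinostat and 0.646, 1.74 and 0.480 CPM with vehicle. The groups did not overlap, and panobinostat library 5 and vehicle library 3 were the high ones of their groups. The log2 fold change was 4.36 ± 0.70 (SE), a fold of 20.6 (edgeR adjusted p = 0.00948), and only 18 of the 12916 tested genes had a higher one. Its size hung on single libraries: the fold was 11.5 without panobinostat library 5 and 34.4 without vehicle library 3. The call was missed without vehicle library 2 (edgeR adjusted p = 0.0570) or vehicle library 4 (0.0540), with folds of 17.6 and 16.5. Meis1 lies on chromosome 11 (GRCm38, 18880428 to 19019651), and annotated antisense and same-strand transcripts overlap it, whose reads cannot be told apart without a known strand setting.

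The balance between the Meis paralogues differed between the groups. Per kilobase of exon, Meis1 made up 11.3%, 26.0% and 12.5% of the summed Meis1, Meis2 and Meis3 level in panobinostat libraries 1, 5 and 6, against 0.922%, 2.28% and 0.684% in vehicle libraries 2, 3 and 4. Meis3 was the most abundant of the 3 in every library, at 5.64 to 6.92 CPM per kb with panobinostat and 3.89 to 4.36 CPM per kb with vehicle. The log2 fold change of Meis3 was 0.57 ± 0.13 (edgeR adjusted p = 0.0215). That call was missed without panobinostat library 5 (0.0565) or vehicle library 2, 3 or 4 (0.0807, 0.0633 and 0.0908). Meis2 had 11.9, 36.9 and 32.6 CPM with panobinostat and 32.6, 32.8 and 28.5 CPM with vehicle, so that the low panobinostat library was library 1. Its log2 fold change was -0.21 ± 0.37 (edgeR adjusted p = 0.716), and 0.15 without that library. In panobinostat library 5 Meis1, at 3.51 CPM per kb, was above Meis2, at 3.06; in every vehicle library Meis2 was far above Meis1.

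**Figure D2:**
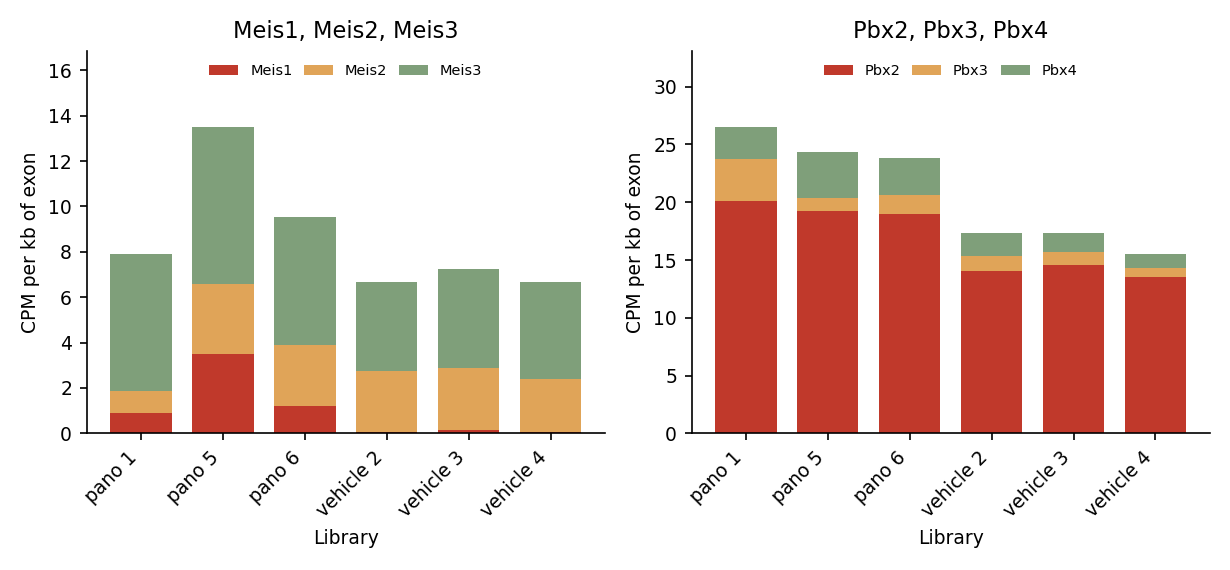
Level per kilobase of exon (CPM per kb, linear axis from 0) of Meis1, Meis2 and Meis3 (left panel) and of Pbx2, Pbx3 and Pbx4 (right panel) in each library, panobinostat on the left and vehicle on the right; each bar stacks the 3 genes. The Pbx stack reaches 23.9 to 26.5 CPM per kb with panobinostat and 15.5 to 17.3 with vehicle, and the red Meis1 block is barely visible in the vehicle libraries.

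Pbx2, one of the PBX partners that MEIS and HOX proteins bind, rose by a small and even amount. It had 73.0, 69.9 and 69.2 CPM in panobinostat libraries 1, 5 and 6, against 51.3, 53.0 and 49.1 CPM in vehicle libraries 2, 3 and 4. The libraries of each group lay close together and the groups did not overlap. The log2 fold change was 0.47 ± 0.08, a fold of 1.38 (edgeR adjusted p = 0.0113). The fold stayed between 1.35 and 1.41 with each library left out, while the adjusted p was 0.0528 with vehicle library 2 left out and 0.0721 with vehicle library 4 left out. Pbx2 (chromosome 17, 34592259 to 34597400) overlaps Gpsm3, which lies on the same strand and had 14313 counts over all libraries, so some reads may be shared.

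Pbx3, a PBX partner of HOXA9 and MEIS1 in leukemia, was not called. Its level was 22.5, 7.13 and 9.93 CPM in panobinostat libraries 1, 5 and 6, against 7.66, 6.74 and 4.80 CPM in vehicle libraries 2, 3 and 4. Panobinostat library 1 was the high one, and the 2 groups overlapped. The log2 fold change of 1.05 ± 0.42 (edgeR adjusted p = 0.119) was 0.42 with panobinostat library 1 left out (0.222). DESeq2 (adjusted p = 0.0426) and limma-voom with sample quality weights (0.0477) did call it, at log2 fold changes of 1.05 and 0.73.

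The TALE list put these genes beside their relatives, and of 11 listed genes 10 were tested. Of these edgeR called 5 higher and 0 lower, against 11.3% and 9.72% of all tested genes. The median log2 fold change of the list was 0.61. DESeq2 called 6 higher and 1 lower. The others that rose, besides Meis1, Meis3 and Pbx2, were Pbx4 and Pbxip1, the last of which encodes a PBX-binding protein. Pbxip1 averaged 82.2 ± 12.2 CPM with panobinostat and 52.3 ± 5.41 CPM with vehicle (SD, n = 3 each; edgeR adjusted p = 0.0174), and Pbx4 averaged 7.32 ± 1.33 CPM with panobinostat and 3.58 ± 0.845 CPM with vehicle (0.0265). Pknox1, another TALE factor, lay lower in every panobinostat library, at 28.7 ± 6.93 CPM against 43.0 ± 5.82 CPM with vehicle, without passing the threshold (edgeR adjusted p = 0.0683; DESeq2 0.0267). Summed per kilobase, Pbx2, Pbx3 and Pbx4 had 26.5, 24.3 and 23.9 CPM per kb in panobinostat libraries 1, 5 and 6, against 17.3, 17.3 and 15.5 CPM per kb in vehicle libraries 2, 3 and 4. Pbx2 held 75.8% to 79.6% of that sum with panobinostat and 81.3% to 87.1% with vehicle. The count of 5 rested on single libraries: it was 0 when vehicle library 2 or vehicle library 4 was left out and 3 when panobinostat library 5 or vehicle library 3 was.

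The HOXA side of the circuit was at or next to zero in both groups. Hoxa9, a HOX factor closely tied to acute myeloid leukemia, had 1 count in panobinostat library 6, 1 count in vehicle library 4 and 0 in the others. Hoxa7 had 1 count in panobinostat library 1 and 1 in vehicle library 2, and Hoxa10 had 0 counts in all 6 libraries. A count of 0 allows a level of up to 3 counts, between 0.0921 and 0.116 CPM before scaling, depending on the library and covering counting error only. No difference between panobinostat and vehicle was detectable for these 3 genes at this depth. The 3 genes lie together on chromosome 6, between 52215623 and 52240854.

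The rest of the Hox genes gave the same picture for the HoxA and HoxD clusters and another for HoxB and HoxC. Of 39 Hox genes, 24 had 0 counts in all libraries, 7 had 1 to 4 counts over all libraries and 8 had more. Those 8 were Hoxb3, Hoxb4 and Hoxb13 and Hoxc4, Hoxc5, Hoxc6, Hoxc8 and Hoxc9, and 7 of them were tested. None of the 7 passed edgeR's test. At an unadjusted p under 0.05 there were 2, Hoxc5 (lower, 0.0244) and Hoxc9 (higher, 0.0213), while DESeq2 called 1, Hoxc5, and limma-voom 0. With sample quality weights limma-voom called both Hoxc4 and Hoxc5 lower (0.0305 and 0.0109), as did edgeR without panobinostat library 1 (0.0296 and 0.0122).

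**Figure D3:**
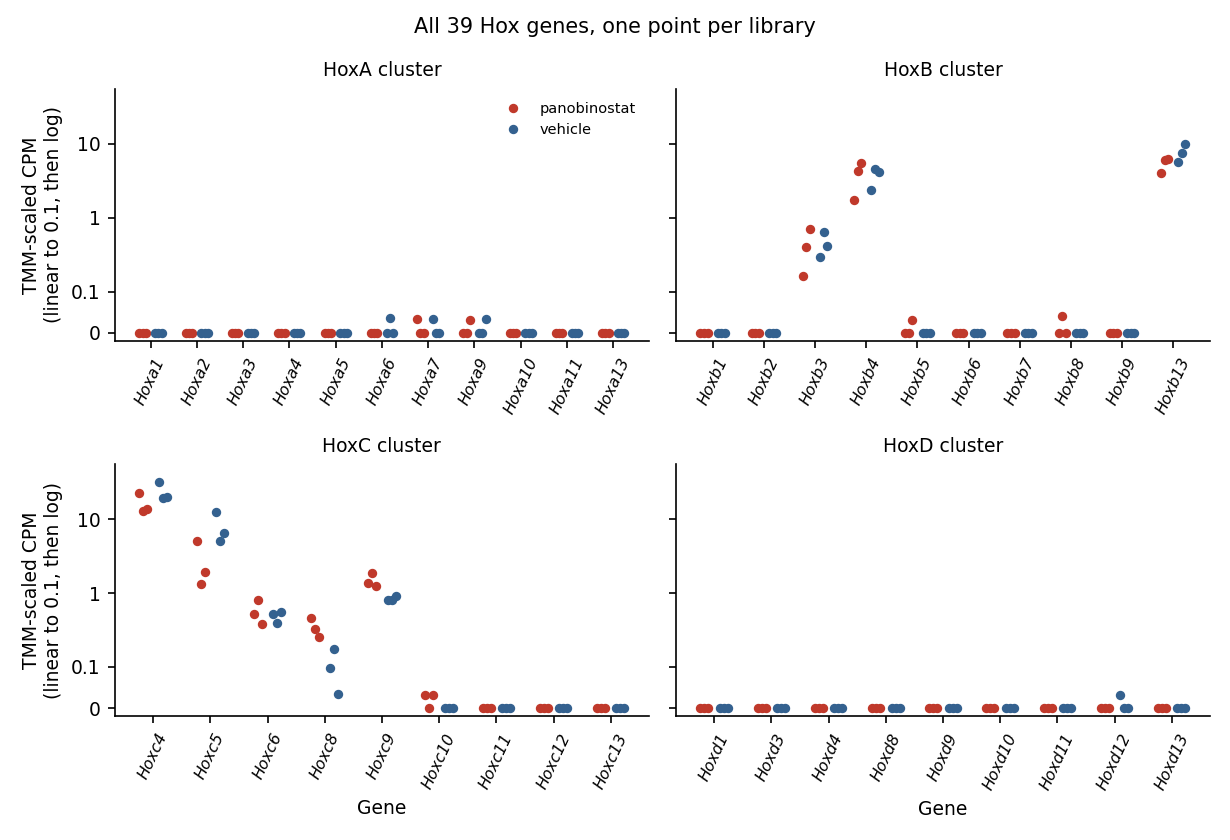
TMM-scaled CPM of all 39 Hox genes by cluster, one point per library, panobinostat in red on the left and vehicle in blue on the right of each gene; the axis is linear up to 0.1 and logarithmic above. All HoxA and HoxD points lie below 0.1 CPM, and Hoxc4 has the highest CPM, not divided by gene length, at 12.9 to 22.4 CPM with panobinostat and 19.5 to 31.6 CPM with vehicle.

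Hoxc4 had 22.4, 12.9 and 13.6 CPM in panobinostat libraries 1, 5 and 6, against 31.6, 19.5 and 20.2 CPM in vehicle libraries 2, 3 and 4. Its neighbour Hoxc5 had 5.02, 1.33 and 1.95 CPM with panobinostat and 12.7, 5.0 and 6.58 CPM with vehicle. For both genes library 1 was the highest of the panobinostat libraries and the one that reached into the range of the vehicle libraries. The log2 fold changes were -0.54 ± 0.27 for Hoxc4 (edgeR adjusted p = 0.195) and -1.54 ± 0.55 for Hoxc5 (0.0844). Without panobinostat library 1 both were called lower, at -0.84 (edgeR adjusted p = 0.0296) and -2.28 (0.0122). Hoxb4, a HOX factor known to expand mouse stem cells, averaged 3.85 ± 1.94 CPM with panobinostat and 3.73 ± 1.18 CPM with vehicle (SD, n = 3 each; edgeR adjusted p = 0.949).

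Genes for the chromatin machinery that keeps HOXA and MEIS1 on in MLL-rearranged leukemia were expressed throughout. Kmt2a, the MLL methyltransferase, averaged 162 ± 34.1 CPM with panobinostat and 137 ± 10.9 CPM with vehicle (edgeR adjusted p = 0.303), and was called higher, at a log2 fold change of 0.41, without panobinostat library 1 (0.0203). Men1, which encodes menin, averaged 65.8 ± 7.30 CPM with panobinostat and 68.9 ± 5.12 CPM with vehicle (edgeR adjusted p = 0.695). Of the 15 tested genes of this list edgeR called 2 higher and 0 lower, against 11.3% and 9.72% of all tested genes. The median log2 fold change of the list was -0.05. At an unadjusted p under 0.05 there were 3 lower, and DESeq2 called 2 lower. Mllt6, a PHD-finger gene that is a fusion partner of MLL, had 10.3, 30.3 and 22.4 CPM with panobinostat and 5.17, 6.42 and 4.28 CPM with vehicle (log2 fold change 1.99 ± 0.38, edgeR adjusted p = 0.0148). Mllt3, another MLL partner and a reader of acylated histones, had 3.81, 1.73 and 1.23 CPM with panobinostat and 0.581, 0.248 and 0.377 CPM with vehicle (2.47 ± 0.53, 0.0202); its log2 fold change was 1.85 without panobinostat library 1. The groups did not overlap for either gene. There were 4 higher calls without panobinostat library 1. Only 1 was left without vehicle library 3, and 0 when vehicle library 2 or 4 was left out.

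Hlf, a transcription factor that marks quiescent blood stem cells and is turned off as they differentiate, was the gene of the 9 that fell. It had 120, 45 and 70 counts in panobinostat libraries 1, 5 and 6, against 308, 183 and 201 counts in vehicle libraries 2, 3 and 4. In CPM these were 3.91, 1.81 and 2.21 with panobinostat and 9.95, 6.49 and 6.89 with vehicle, so that all panobinostat libraries lay below all vehicle libraries. The log2 fold change was -1.55 ± 0.33, a level 2.93-fold lower (edgeR adjusted p = 0.0196). It ranged between -1.94 without panobinostat library 1 and -1.34 without vehicle library 2. Leaving out panobinostat library 6 gave an adjusted p of 0.0592, vehicle library 2 one of 0.0784 and vehicle library 4 one of 0.0701. Hlf lies on chromosome 11 as well (90336535 to 90390917), far from Meis1.

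Of Hlf's relatives, Dbp, Tef and Nfil3, edgeR called 0. At an unadjusted p under 0.05 Dbp was lower and Nfil3 higher, and DESeq2 called Nfil3. Limma-voom with sample quality weights called Dbp lower (adjusted p = 0.0456) and Nfil3 higher (0.0341). With library size as the only scaling, edgeR called Dbp lower (adjusted p = 0.0387). Dbp averaged 2.20 ± 0.0755 CPM with panobinostat and 3.45 ± 0.473 CPM with vehicle (edgeR adjusted p = 0.0657), and Tef averaged 88.5 ± 19.3 CPM with panobinostat and 90.0 ± 5.05 CPM with vehicle (0.932). Nfil3, a repressor that binds the same DNA sites, had 0.554, 5.24 and 1.61 CPM in panobinostat libraries 1, 5 and 6 and 0.258, 0.744 and 0.548 CPM in vehicle libraries 2, 3 and 4. It was called higher without panobinostat library 1, its lowest panobinostat library (edgeR adjusted p = 0.0157), and was not called with all libraries (0.0899). The median log2 fold change over Hlf, Dbp, Tef and Nfil3 was -0.33.

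Myb, the transcription factor that keeps blood progenitors dividing and immature, was the most abundant of the 9 per kilobase of exon. It had 479, 575 and 494 CPM in panobinostat libraries 1, 5 and 6, against 345, 354 and 362 CPM in vehicle libraries 2, 3 and 4. The vehicle libraries lay close together, and every panobinostat library was above them. The log2 fold change was 0.55 ± 0.10, a fold of 1.46 (edgeR adjusted p = 0.0137). Folds stayed between 1.38 and 1.51 with each library left out, while the adjusted p was 0.0633, 0.0539 and 0.0698 without vehicle library 2, 3 or 4. Myb lies on chromosome 10 (21124930 to 21160984) and has an annotated antisense gene.

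Within its family the direction differed by gene. Mybl2, the cell cycle member, had 59.3, 47.9 and 73.8 CPM with panobinostat and 121, 82.7 and 93.8 CPM with vehicle, a log2 fold change of -0.72 ± 0.19 (edgeR adjusted p = 0.0395). The call was missed when panobinostat library 5 was left out (0.0843), or vehicle library 2, 3 or 4 (0.128, 0.0525 and 0.11), and with sample quality weights (0.0516). Mybl1 averaged 6.31 ± 1.33 CPM with panobinostat and 6.57 ± 0.573 CPM with vehicle (0.860). Crebbp and Ep300, acetyltransferases that MYB recruits, were not called (edgeR adjusted p = 0.846 and 0.349).

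Of 17 tested genes reported as MYB targets, 1 rose and 2 fell, with a median log2 fold change of 0.14. Over all tested genes the shares called were 11.3% higher and 9.72% lower. Tal1, a stem cell and erythroid factor, averaged 611 ± 22.1 CPM with panobinostat and 439 ± 23.2 CPM with vehicle (edgeR adjusted p = 0.0139). Ccnb1, a mitotic cyclin, averaged 86.1 ± 11.6 CPM with panobinostat and 169 ± 21.2 CPM with vehicle (0.00652). Gata3 averaged 46.2 ± 10.7 CPM with panobinostat and 88.3 ± 8.15 CPM with vehicle (0.0143). Kit, the stem cell factor receptor, averaged 238 ± 79.0 CPM with panobinostat and 216 ± 5.48 CPM with vehicle (0.681). Without vehicle library 2 or vehicle library 4 no gene of this list was called higher and 1 was called lower, and without panobinostat library 1 there were 4 called higher.

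Erg, the ETS factor needed for stem cell maintenance, was near the lower limit of what could be tested and was not called. It had 8, 18 and 26 counts in panobinostat libraries 1, 5 and 6, against 20, 23 and 12 counts in vehicle libraries 2, 3 and 4. That was 0.261, 0.725 and 0.819 CPM with panobinostat and 0.646, 0.815 and 0.411 CPM with vehicle, and the groups overlapped. The log2 fold change was -0.06 ± 0.48 (edgeR adjusted p = 0.946). Its sign turned positive without panobinostat library 1 (0.31), without vehicle library 3 (0.18) and with sample quality weights in limma-voom (0.34). Fli1, the closest relative of Erg, was at 58.7 to 133 CPM with panobinostat and 77.6 to 111 CPM with vehicle (edgeR adjusted p = 0.812). Of 14 tested ETS genes edgeR called 1 higher, Elk3, and 0 lower, against 11.3% and 9.72% of all tested genes. At an unadjusted p under 0.05 there were 2 lower. Without panobinostat library 1 edgeR called 3 higher and 1 lower, and limma-voom with sample quality weights called 2 higher and 1 lower. Elk3 averaged 13.8 ± 5.84 CPM with panobinostat and 5.94 ± 1.39 CPM with vehicle (edgeR adjusted p = 0.0427). That call was lost with each library left out except panobinostat library 1 (0.0664 to 0.146), with limma-voom (0.0687) and with library size as the only scaling (0.0515).

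Ranked per kilobase of exon, the 9 genes changed places between the groups. With panobinostat the order was Myb at 57.8 ± 5.80 CPM per kb, Pbx2 at 19.4 ± 0.567, Pbx3 at 2.16 ± 1.34, Meis1 at 1.86 ± 1.43, Hlf at 0.396 ± 0.167 and Erg at 0.174 ± 0.0863 (SD, n = 3). With vehicle it was Myb at 39.6 ± 0.955, Pbx2 at 14.0 ± 0.537, Hlf at 1.16 ± 0.283, Pbx3 at 1.05 ± 0.239, Erg at 0.180 ± 0.0586 and Meis1 at 0.0906 ± 0.0649 CPM per kb. The Hoxa genes came last in both. Neighbours whose means ± SD overlapped were Pbx3 and Meis1, Meis1 and Hlf, and Hlf and Erg with panobinostat, and Hlf and Pbx3, and Erg and Meis1 with vehicle.

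**Figure D4:**
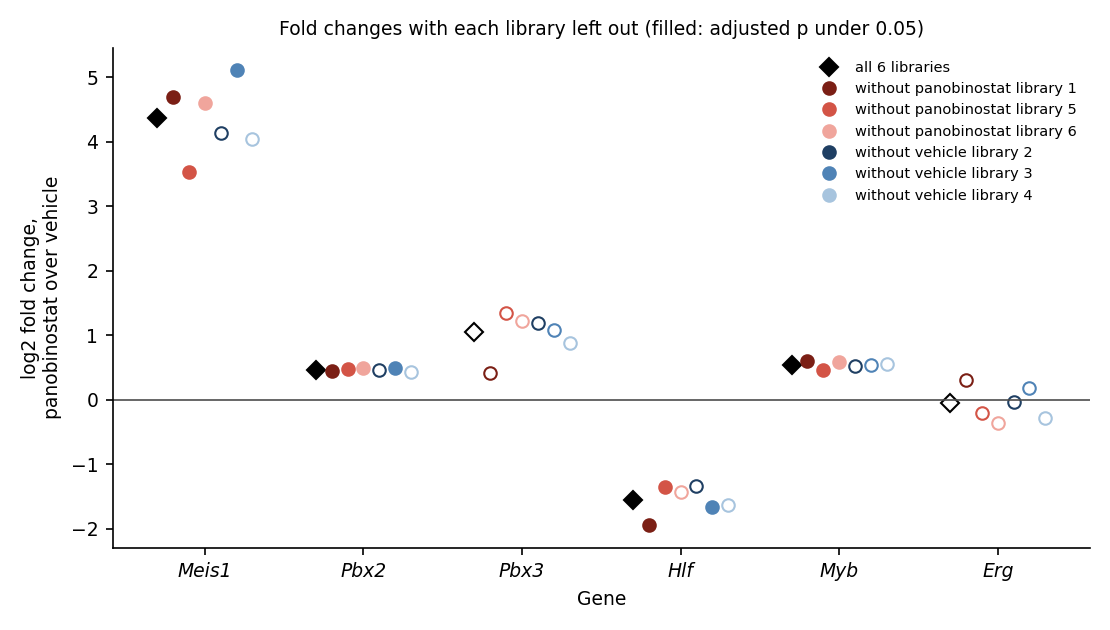
Log2 fold change of panobinostat over vehicle for the 6 tested genes with all 6 libraries (black diamonds) and with each library left out in turn (circles); filled symbols passed an adjusted p under 0.05. Meis1 ranges from 3.52 to 5.10 and stays positive, Hlf ranges from -1.94 to -1.34 and stays negative, and open circles show the calls of Meis1, Pbx2, Hlf and Myb missed without vehicle library 2 or 4, of Hlf without panobinostat library 6 and of Myb without vehicle library 3.

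Of 16 tested transcription factors on the wider stem cell list, 5 rose, against 11.3% of all tested genes. The median log2 fold change of the list was 0.35. None was lower by edgeR, at an unadjusted p under 0.05 (0) or by DESeq2 (0). Gata2, a stem and mast cell factor, had 619, 751 and 609 CPM in panobinostat libraries 1, 5 and 6, against 345, 436 and 371 CPM in vehicle libraries 2, 3 and 4 (log2 fold change 0.78 ± 0.13, edgeR adjusted p = 0.0106). Lyl1, the closest relative of Tal1, averaged 165 ± 12.2 CPM with panobinostat and 113 ± 10.1 CPM with vehicle (0.0139). Gfi1b, a transcriptional repressor found in erythroid and megakaryocytic cells, had 594, 224 and 232 CPM with panobinostat and 119, 107 and 115 CPM with vehicle (0.0244), with library 1 far above the rest. Its fold of 3.08 was 2.01 without panobinostat library 1 (0.000666), and its call was missed without vehicle library 2, 3 or 4 (0.0926, 0.0739 and 0.0960). Ikzf2, which encodes Helios, averaged 229 ± 68.5 CPM with panobinostat and 126 ± 29.8 CPM with vehicle (0.0452; 0.0607 with library size as the only scaling). It was missed without panobinostat library 5 or 6 or vehicle library 2 or 4 (adjusted p from 0.0812 to 0.154). Runx1, whose product is the other partner of the fusion, had 423, 1023 and 764 CPM with panobinostat and 635, 745 and 619 CPM with vehicle (0.746). Mecom, a stem cell gene, had 0 counts in all libraries. All 5 calls, Tal1 among them, were missed without vehicle library 2 or vehicle library 4. Without vehicle library 2 the list held 1 call, of another gene, Egr1 (log2 fold change 2.81, edgeR adjusted p = 0.0151). Egr1 was not called with all libraries (0.292). Limma-voom with sample quality weights called 9 of the list higher.

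**Figure D5:**
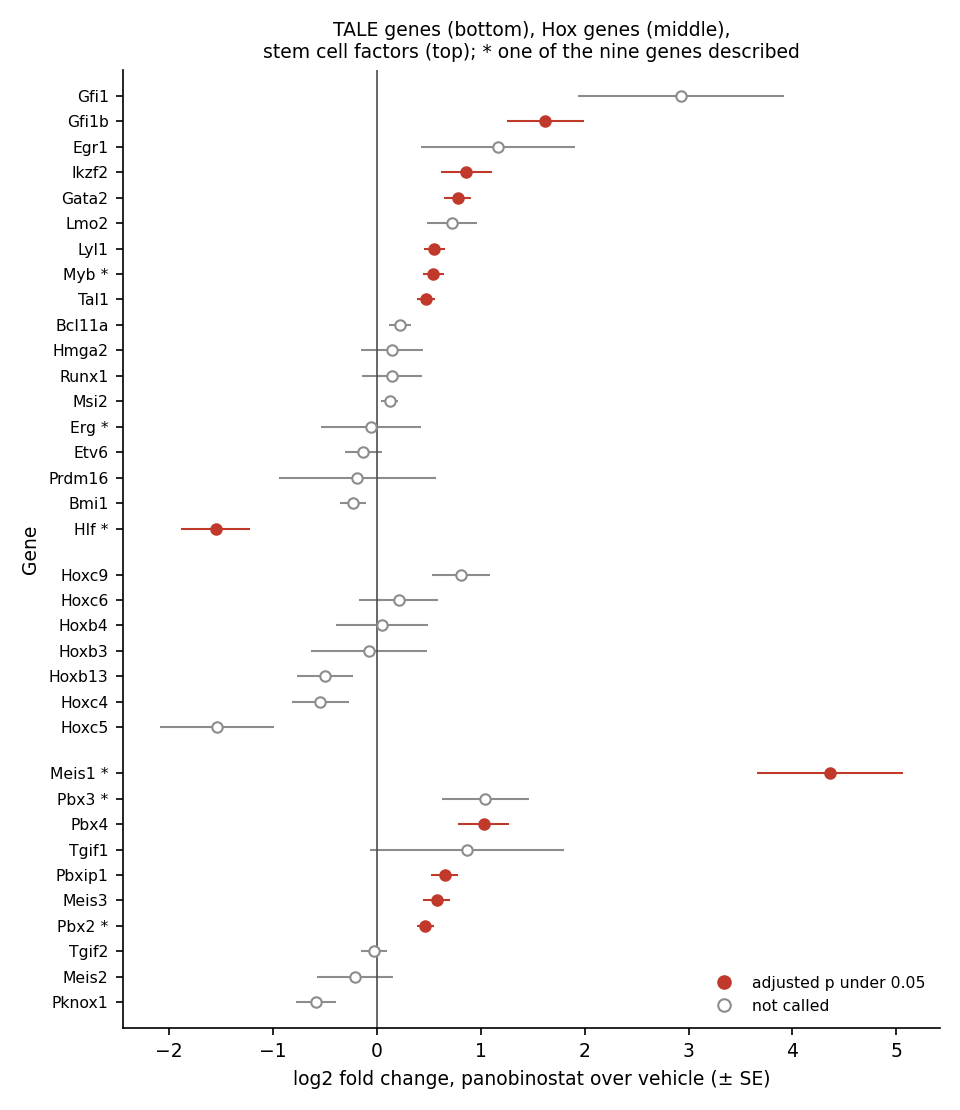
Log2 fold change ± SE of panobinostat over vehicle for tested TALE genes (bottom), Hox genes (middle) and stem cell factors (top); filled red points passed an adjusted p under 0.05 and asterisks mark genes among the 9. Meis1, at 4.36, lies furthest right, Hlf, at -1.55, is the called gene to the left of 0, and no Hox gene is filled.

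Surface and signalling genes used to define stem cells were mixed. Of 12 tested, 4 rose and 1 fell, against 11.3% and 9.72% of all tested genes. The median log2 fold change of the 12 was 0.75. Slamf1, the SLAM receptor that marks mouse stem cells, had 4.30, 29.7 and 11.7 CPM in panobinostat libraries 1, 5 and 6, against 0.969, 1.03 and 0.480 CPM in vehicle libraries 2, 3 and 4 (edgeR adjusted p = 0.0120), and its fold of 18.3 was 9.65 without panobinostat library 5. Ly6a, the stem cell antigen Sca-1, averaged 2.76 ± 1.27 CPM with panobinostat and 0.273 ± 0.0749 CPM with vehicle (0.00666). Cdkn1c, a cell cycle inhibitor of resting stem cells, averaged 15.8 ± 7.41 CPM with panobinostat and 4.77 ± 1.19 CPM with vehicle (0.0218; 0.0505 without panobinostat library 6). Itga2b, the integrin CD41 of megakaryocytes and early progenitors, averaged 99.3 ± 31.3 CPM with panobinostat and 16.2 ± 5.68 CPM with vehicle (0.00428). Ctnnal1, whose product is a marker of resting mouse stem cells, averaged 60.02 ± 13.2 CPM with panobinostat and 126 ± 17.8 CPM with vehicle (0.0110). Cd34 had 2.90, 32.2 and 9.01 CPM with panobinostat and 7.11, 11.3 and 8.87 CPM with vehicle (0.528), and its log2 fold change of 0.69 turned to -0.61 without panobinostat library 5. Flt3 had too few counts to test, 39 over all libraries. The 4 higher calls were 2 without vehicle library 2 or vehicle library 4, when Slamf1 and Cdkn1c were missed, and without vehicle library 4 the lower call was missed too.

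Genes reported as targets of HOXA9 and MEIS1 were counted although the HOXA genes were near 0. Of 19 tested, 6 rose, Myb among them, against 11.3% of all tested genes. The median log2 fold change of the 19 was 0.55. None was lower by edgeR, at an unadjusted p under 0.05 (0) or by DESeq2 (0). Id2, an inhibitor of helix-loop-helix factors, averaged 400 ± 299 CPM with panobinostat and 20.5 ± 6.33 CPM with vehicle (edgeR adjusted p = 0.00666), and its fold of 19.5 was 11.5 without panobinostat library 5. Ccnd3, a D-type cyclin, averaged 606 ± 134 CPM with panobinostat and 302 ± 22.1 CPM with vehicle (0.00977). Fgf2, a growth factor, averaged 10.1 ± 3.31 CPM with panobinostat and 3.61 ± 0.211 CPM with vehicle (0.0136), and Pim1, a survival kinase, averaged 365 ± 46.0 CPM with panobinostat and 223 ± 41.7 CPM with vehicle (0.0243). Itgb3, an integrin of megakaryocytes, averaged 7.59 ± 6.91 CPM with panobinostat and 1.54 ± 0.749 CPM with vehicle (0.0499), and limma-voom did not call it (0.0956). Itgb3 was also missed without any one library other than panobinostat library 1 (adjusted p from 0.0509 to 0.166), and its fold of 4.90 was 2.34 without panobinostat library 5. The count was 10 without panobinostat library 1. It was 3 when vehicle library 3 was left out and 1 when vehicle library 2 or 4 was.

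For each tested member, the genes with the most similar profile over the 6 libraries were picked out of 9385 named genes averaging 5 CPM or more, by the root mean square difference of centred log2 CPM. Nearest to Meis1 were Notch3, Id2 and Slamf1, at differences of 0.34, 0.34 and 0.44, where Meis1 itself varied by 1.94. Nearest to Pbx2 were Fam193b, Hsd3b7 and Frs2, and nearest to Myb were Inafm2, Lgals8 and Snx14. Ifi30, Susd2 and Tulp2 were nearest to Hlf, Dclk2, Tlcd1 and Fn3krp to Pbx3, and Garre1, Nynrin and Ptpn9 to Erg. Among the genes near Meis1, Notch3 averaged 10.9 ± 7.92 CPM with panobinostat and 0.174 ± 0.158 CPM with vehicle (SD, n = 3 each). The 6 points fall into 2 groups, so genes that differ alike between the groups score as alike.

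Markers of other blood and spleen cells moved beside these genes, and in bulk libraries a change in the share of a cell type and a change in RNA per cell cannot be told apart. The sort for GFP would leave out cells of these types that are not part of the leukemia. Its purity was not tested. Beside the marker counts below, 11.3% of all tested genes were called higher and 9.72% lower. Megakaryocyte markers summed to 1071, 1114 and 851 CPM in panobinostat libraries 1, 5 and 6, against 438, 547 and 482 CPM in vehicle libraries 2, 3 and 4, and 8 of 10 tested rose, among them Pf4 and Gp9 (the fold of Gp9, 10.6, was 4.75 without panobinostat library 1); the count was 3, 4 and 2 without vehicle library 2, 3 or 4. All 6 globin genes rose, with sums of 21074 to 47043 CPM with panobinostat and 4213 to 5394 CPM with vehicle. Macrophage markers, of which 3 of 12 rose (0 without vehicle library 2 or 4, 1 without vehicle library 3), summed to 35.8 to 61.4 CPM with panobinostat and 20.9 to 24.8 CPM with vehicle; the defining Csf1r and Adgre1 averaged 5.46 and 1.11 CPM with panobinostat and 2.62 and 0.761 CPM with vehicle, uncalled. Of 6 tested endothelial markers 2 rose, Kdr and Pecam1 (the fold of Pecam1, 4.26, was 2.83 without panobinostat library 5), and 1 did without vehicle library 2, 3 or 4; the list summed to 119 to 142 CPM with panobinostat and 115 to 119 CPM with vehicle, while Cdh5 had 5 counts in all libraries together. Dendritic cell markers summed to 182 to 265 CPM with panobinostat and 89.1 to 99.7 CPM with vehicle, mostly through Bst2, and 3 of 7 rose (1 without vehicle library 4); Siglech had 5 counts in all.

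Neutrophil markers summed to 2.80 to 8.50 CPM with panobinostat and 3.49 to 9.64 CPM with vehicle, with 1 of 6 called higher, Cxcr2. B cell markers summed to 4.68 to 8.93 CPM with panobinostat and 3.88 to 6.95 CPM with vehicle, and T and NK cell markers to 8.44 to 27.6 CPM with panobinostat and 8.17 to 14.6 CPM with vehicle. Of both lists edgeR and DESeq2 called 0, and 0 had an unadjusted p under 0.05; without panobinostat library 1 edgeR called 1 T and NK cell marker higher. Stromal markers summed to 4.76 to 9.71 CPM with panobinostat and 5.48 to 9.11 CPM with vehicle, with 1 of 3 called higher, Pdgfrb. DESeq2 also called Thy1, a stromal marker here, lower (0.0369; edgeR 0.0964). The calls of Cxcr2 and Pdgfrb were lost without vehicle library 2, 3 or 4, and that of Cxcr2 without panobinostat library 5 as well (0.0802); a filter of at least 1 CPM in 3 libraries left both untested. The part of any of these markers in the changes of Meis1, Pbx2, Hlf and Myb was not tested.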

How the data were processed

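RNA of sorted leukemia cells was sequenced in 6 libraries, 3 per group, per the labels. Library kit and RNA isolation were TruSeq RNA and Trizol with RNeasy columns, per the labels' protocols. The authors deposited raw read counts, whole numbers for each gene in each library. The submitters' processing notes name build mm10, HISAT2 2.1.0, featureCounts (Subread 2.0.0), cutadapt 2.1, FastQC 0.11.6, limma and bcl2fastq 2.17.1.14. The sources used here do not give the annotation, strand setting or multi-mapping rule, so overlapping and antisense genes may share reads. Column names give the group and 3 numbers that the sources do not explain, and libraries are called by the first. Vehicle libraries 2 and 3 share the second number, as do panobinostat libraries 1 and 6, and panobinostat library 1 alone differs in the third; whether these mark an animal or a batch is not stated. 0 columns were left unused. Total counts ran from 25794869 to 32571961. No pair of libraries agreed within sampling noise (lowest chi-square per degree of freedom 13.2).

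Genes were named from RefSeq (25275) and GENCODE (18) by Entrez ID, and 1886 stayed unnamed; positions are RefSeq's. After edgeR's filterByExpr, 12916 genes were tested in edgeR 4.0.16 (R 4.3.3) by its quasi-likelihood F test with TMM scaling, treatment being the only term, with Benjamini-Hochberg adjustment over all of them. SE was taken as |log2 fold change| over the root of F. Lengths are unions of GENCODE exons. Alternatives were other normalizations and filters, DESeq2 1.42.0, limma-voom (limma 3.58.1) with and without sample quality weights, robust shrinkage, and each library left out.

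The members and gene lists were chosen with earlier results of these data known, so lists carry counts and medians only. Named were all 9 members, up to 5 called genes per pathway list with the smallest p and a group mean of at least 1 CPM, 10 preset genes (a further one is not reported here, nor counted in its list), the 3 nearest profiles per tested member (log2 of CPM plus 0.5), and defining or called markers of other cells. Pknox1, Itgb3, Hoxc4, Hoxc5, Hoxb4, Dbp, Tef, Nfil3, Mybl1, Crebbp, Ep300 and Egr1 fall outside this rule and were named after their values were seen. Pbx4 falls within the rule in the list as counted here, and was also named after its values were seen.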

Additional observations from a re-analysis of the deposited data

How the results depend on the processing

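Meis1, Pbx2, Hlf and Myb kept their direction under all alternatives and their call under every normalization, filter and test tried with all 6 libraries. With 1 library left out, the number of the 9 genes called higher ranged from 0 to 3 and the number called lower from 0 to 1; both were 0 without vehicle library 2 or vehicle library 4. Leaving out 1 library also moved the calls over all genes, from 303 to 2192 higher and from 135 to 1864 lower. Limma-voom with sample quality weights gave 2358 higher and 2162 lower genes. With library size as the only scaling, 1135 genes were higher and 2065 lower, 35.5% higher among the calls against 53.8% with TMM, with a median log2 fold change of -0.10 over all genes against 0.01; the 4 called members kept their calls there. Erg reversed to 0.34 with sample quality weights, and over the libraries left out it ranged from -0.36 to 0.31, with 0.18 without vehicle library 3; the cause was not tested. No paired analysis was possible because the column names carry no replicate number of the labels, and the unexplained second number in them is shared only within a group. Low counts limit what can be said of Hoxa7, Hoxa9, Hoxa10 and Erg.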
